A study of Mus musculus with 8 samples.

Results

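The samples compared here were Venus-negative (V-) mouse ES cells sorted into an SSEA-1-negative (V-S-) and an SSEA-1-positive (V-S+) fraction. The HV ES cell line supplied 1 sample of each fraction from its clone 5.1 and 1 from its clone 16.1. The samples were chosen by their sort labels and paired by clone, and make up 4 of the 8 samples of the series. The other 4 were the Venus-positive fractions V+S+ and V+S- of the same clones. HV cells are 129/Ola ES cells with a knock-in at the Hex locus, in which a tagged Hex cDNA is followed by an amplifying internal ribosome entry site and the fluorescent protein Venus. All groups carried this allele as well as the BirA ligase gene at the Rosa26 locus, and were grown with LIF under self-renewing conditions before the sort. No group received another treatment. Each group is 1 sort from each of 2 clones of 1 line, so the spread given here is that between clones.

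SSEA-1 is the Lewis X carbohydrate, a trisaccharide that ES cells carry on surface glycoproteins and glycolipids and lose as they differentiate. Its last step in mouse ES cells is the transfer of fucose by the enzyme Fut9. Cells without SSEA-1 in an ES culture are therefore usually read as leaving the undifferentiated state, and Venus marks transcription from Hex, an early endoderm gene. The V-S- fraction is the one that has lost the antigen without detectable reporter. ES cultures are also known to hold a few cells that transiently express genes of the 2-cell embryo, such as the Zscan4 cluster, whose proteins are linked to telomere maintenance, and the Tcstv genes.

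On arrays of 60-base probes, Cy3-labelled RNA of a fraction competed with Cy5-labelled reference RNA pooled from mouse cell lines. Values are the log2 ratio of fraction to reference and differences are V-S- minus V-S+. The files mark every probe as unmapped, so no genome position is given. The probes that the results turn on are given by the first 30 of their 60 bases. The first 7 belong to genes that were higher in V-S-, Fut9 is the check on the sort, and Krt18 and Prss23 were lower in V-S- and higher in V+S-. No bases are in capitals, since none were singled out.
Zscan4c: aacatctctgaggacaagaacaattgctat
Tcstv1: cctgtccgggatcctgtttctgacagttcc
Tcstv3: ctaagacttgcaattaggggatcttctgtc
Tmem92: ctgtcttgtcaacctacattgtatctgtct
AF067061: gttacaggaaaggcacacaaaggcagttgt
AF067063: ggccacaagtgttcccaggagatatggaca
B020031M17Rik: gcacccagaactctggagcccaggaaccca
Fut9: tgtgattctgaagactctgacagaaaattt
Krt18: ggatggcagagtggtgtccgagactaatga
Prss23: cgtagtagtccttgaagagaacaataattt

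The files hold 2 repeat scans per array, which were averaged. Their log2 ratios parted with an SD over probes from 0.0563 to 0.0778. Between 28317 and 29671 of 42006 probes were well above background in a sample, and no spot was saturated. Clone 5.1 filled one slide and clone 16.1 another, with each fraction at the same position on both, so clone and slide, and fraction and position, cannot be told apart. Of 29484 probes tested, 1997 had a symbol, which came from the study's list of genes that varied among these samples. Counts over named genes are therefore not independent evidence of a direction.

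Loss of SSEA-1 in Venus-negative cells went with few differences of more than 1.5-fold. Nearly all that passed this size in both clones were higher values in V-S-, a split that depended on the processing. In both clones, 64 probes were higher by more than 1.5-fold and 1, the cornified envelope gene Scel, was lower. These are 0.217% and 0.00339% of the probes tested, and 39 (1.95%) and 1 (0.0501%) of those with a symbol. In clone 5.1 alone 93 probes were higher and 57 lower by this measure, and in clone 16.1 82 were higher and 29 lower. No probe was past 1.5-fold in opposite directions. Over all probes the differences had an SD of 0.149 in clone 5.1 and 0.132 in clone 16.1, with a median near 0.00 in each, and the clones correlated with r = 0.60 across probes, which share arrays and are not independent.

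No probe passed an FDR of 0.05 in the fit of all 8 samples with clone as a block (limma, Benjamini-Hochberg), so 0% were called in either direction. The lowest adjusted p was 0.188, and 2471 probes had an unadjusted p below 0.05, of which 1267 (4.3%) were higher and 1204 (4.08%) lower. In a fit of the 4 V- samples alone with the same block, 68 probes were called higher and 7 lower. All 64 probes past 1.5-fold in both clones were among the 68, with adjusted p between 0.000247 and 0.0251. They were chosen by the same differences between the same samples that this fit tests, so the overlap and the low p largely follow from the choice. That fit had 1 residual degree of freedom beside a prior of 4.71, and without the clone block it called 0 probes. The 64 probes had a median standard error of 0.219 in the fit of 8 samples, against 0.0689 for all probes. Their V- differences parted by a median of 0.127 between clones and their V+ differences by 0.441. The split of 64 to 1 moved to 53 to 23 with median centring in place of loess, and to 263 to 109 with the processed signals of the scanner software, which differ in both background correction and normalization. It was 166 to 62 with the authors' own table, in which 18305 probes were tested.

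**Figure D1:**
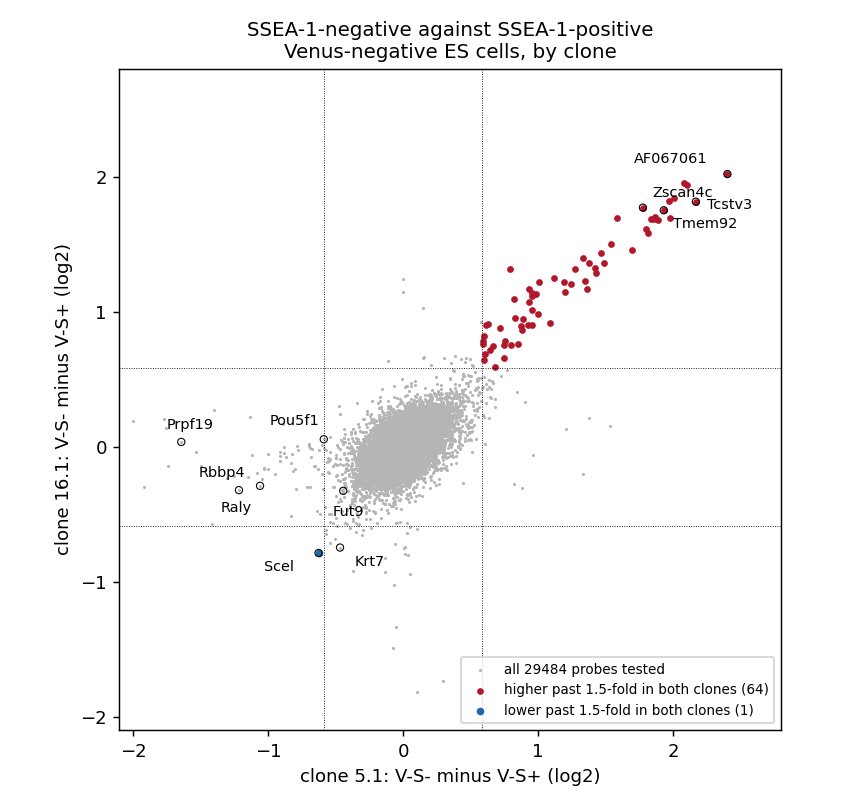
Difference between V-S- and V-S+ cells for each of 29484 probes, in log2 units, in clone 5.1 (x axis) and clone 16.1 (y axis). Dotted lines mark 1.5-fold; the 64 probes higher in both clones (red) lie along the diagonal up to 2.40 and 2.02 for AF067061, while Prpf19, Raly and Rbbp4 are far below 0 in clone 5.1 and nearer 0 in clone 16.1.

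Zscan4c, Tcstv1 and Tcstv3, known from the 2-cell embryo, were among the largest higher values. Zscan4c, a zinc finger and SCAN domain gene of the 2-cell stage, was at -1.70 and -0.82 in V-S+ cells of clones 5.1 and 16.1 and at 0.08 and 0.95 in V-S- cells. Tcstv1, a 2-cell-stage variable group member, was at -0.22 and 0.50 in V-S+ and at 1.67 and 2.17 in V-S-. Tcstv3, of the same group, was at -0.27 and 0.55 in V-S+ and at 1.90 and 2.37 in V-S-. For each of the 3 genes both V-S- samples lay above both V-S+ samples, and clone 16.1 was the higher clone in both fractions. The share of all probes without such overlap was not counted, here or for the genes below. Of all probes 35% were higher and 34.1% lower in both clones at any size, and these include every probe without overlap. The differences were 1.77 (SE 0.361, 3.42-fold) for Zscan4c, 1.78 (SE 0.363) for Tcstv1 and 1.99 (SE 0.378, 3.98-fold) for Tcstv3. The adjusted p was 0.379, 0.379 and 0.375 in the fit of 8 samples and 0.000247, 0.000292 and 0.000648 in the fit of the V- samples alone.

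The 15 largest differences among named genes were all above 0 in both clones, from 1.27 to 2.40 in single clones. They were AF067061, Tcstv3, Eif1a, Tmem92, Tcstv1, Zscan4c, EG627488 (now Gm6763), B020031M17Rik, Gm428, EG226955, AF067063, EG434050, BC061212, EG666169 and BC080695. AF067061 led with -0.72 and 0.14 in V-S+ against 1.69 and 2.16 in V-S-, a difference of 2.21 (SE 0.389, 4.63-fold). Tmem92, which encodes a transmembrane protein, was at -0.71 and -0.17 in V-S+ and at 1.22 and 1.58 in V-S-. Eif1a, a translation initiation factor, differed by 1.89 (SE 0.410). Most of these entries are gene models with no described role, and several belong to families of near-identical copies, so a probe may also measure other copies. The third and second largest differences over all probes belonged to probes with no name, Z00034256-1 (2.02) and Z00031029-1 (2.02).

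The probes with higher values were mostly distinct sequences. Among the 2016 pairs of the 64 probes, 3 pairs shared a run of 20 or more bases, and these involved 6 probes. Tcstv1 and Tcstv3 were not among them. All 64 were well above background in both V-S- samples, and 62 in all 4 V- samples. For EG545929 and LOC226030 this was so in 1 of the 2 V-S+ samples.

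**Figure D2:**
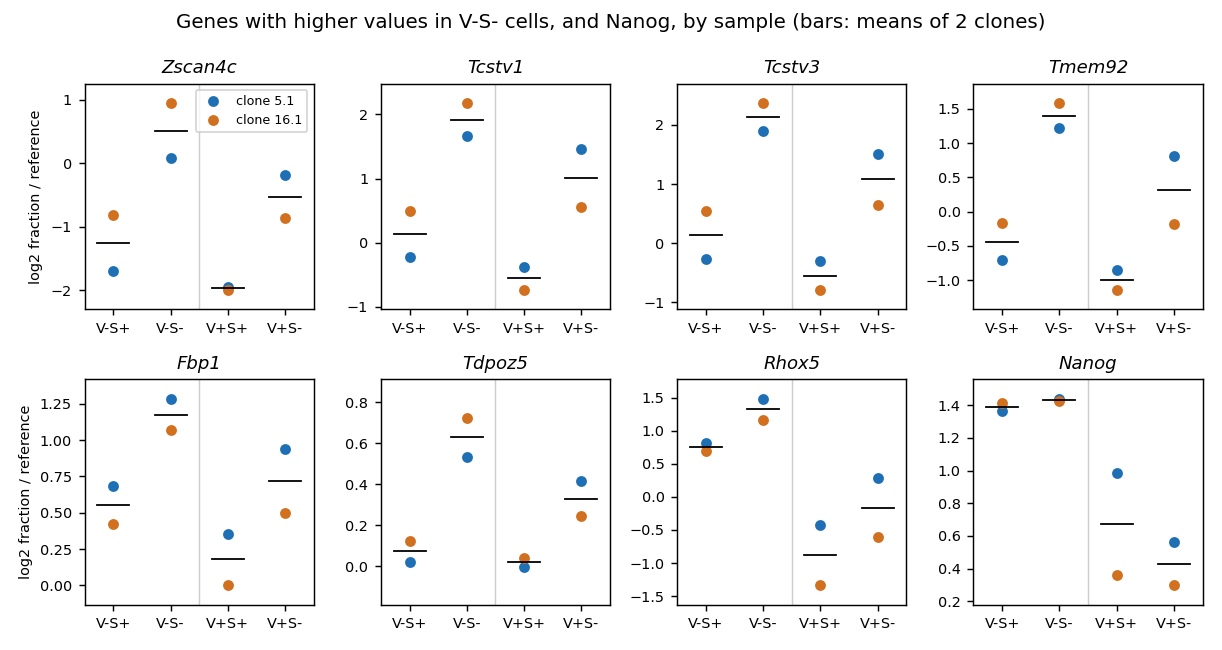
Log2 ratio of fraction to reference (y axis) for 8 genes in the 4 sorted fractions (x axis), with points for clones 5.1 and 16.1 and a bar for their mean. Zscan4c, Tcstv1, Tcstv3, Tmem92, Fbp1 and Tdpoz5 are highest in V-S- on average, and Nanog is near 1.4 in all 4 V- samples.

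A few other annotated genes were among the 64 probes. Lgals4, a galectin, was at -1.03 and -0.75 in V-S+ and at -0.08 and 0.15 in V-S-. Fbp1, a fructose bisphosphatase of gluconeogenesis, was at 0.68 and 0.42 in V-S+ and at 1.28 and 1.07 in V-S-. The groups did not overlap for either gene, and Fbp1 had one of the smaller differences at 0.62 (SE 0.0701, adjusted p = 0.370 by limma). The lowest adjusted p of the comparison, 0.188, belonged to the gene model A530040E14Rik and to Z00060088-1. A530040E14Rik was at -3.42 and -3.21 in V-S+ and at -2.30 and -1.96 in V-S-.

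The same probes were higher in SSEA-1-negative cells when Venus was on. In the V+S- against V+S+ comparison, which shares no sample with that in V- cells, all 64 were higher in both clones, 29 of them by more than 1.5-fold in both. Of all probes 40.8% and 1.24% were. The median difference was 1.09 in V- and 0.787 in V+, where all probes had medians of 0.00 and 0.02. In the fit with clone as a block, 13 of the 64 were called higher in V+S- (20.3%, against 1.75% of all probes and 17% of those with a symbol), among them Tcstv1 (1.55, adjusted p = 0.0431 by limma) and Tcstv3 (1.62, adjusted p = 0.0430 by limma). Zscan4c differed by 1.45 there and did not pass (adjusted p = 0.0510 by limma). None of the 64 was called for a difference between the V- and V+ comparisons. For Zscan4c that difference was 0.33 with a 95% interval from -0.893 to 1.54, which leaves room for a large difference either way.

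Across the 4 fractions V-S- held the highest mean for 63 of the 64 probes, which were chosen for a higher V-S- than V-S+, so that this part of the order and a larger median in V- than in V+ follow from the choice. For 61 the means went down from V-S- through V+S- and then V-S+ to V+S+. Zscan4c was at -0.19 and -0.87 in V+S- and at -1.96 and -1.99 in V+S+. In V+S- clone 5.1 was the higher clone for Zscan4c, Tcstv1, Tcstv3 and Tmem92, whereas in both V- fractions clone 16.1 was. V+S- and V-S+ overlapped for Zscan4c, since V-S+ of clone 16.1 lay above V+S- of that clone. In RNA of a sorted bulk, more cells of a kind and more RNA per cell cannot be told apart.

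A list of germline and 2-cell-stage genes had 37 named members, of which 22 were higher in both clones and 8 lower, against 35% and 34.1% of all probes. Its median was 0.12, and 11 members had an unadjusted p below 0.05, all of them higher (7.21% of named probes were higher and 10.2% lower by this measure). The median turned to -0.0089 with median centring, where all probes shifted by -0.125, and to -0.019 without V-S+ of clone 5.1, and was 0.334 without V-S+ of clone 16.1. Only Tcstv1, Tcstv3 and Zscan4c passed 1.5-fold in both clones. Tdpoz5, a BTB domain gene, was at 0.02 and 0.12 in V-S+ and at 0.54 and 0.73 in V-S-. Pramel6, of the Prame family, was at 1.26 and 1.099 in V-S+ and at 1.63 and 1.66 in V-S-. Both genes were higher in each V-S- sample without overlap, a pattern whose share over all probes was not counted.

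The Rhox genes, an X-linked homeobox cluster, had smaller differences of one sign. Of 9 named members, 8 were higher in both clones, with a range from 0.20 to 0.57 and a median of 0.31, and 6 had an unadjusted p below 0.05. Of all named probes 32.1% were higher in both clones and 7.21% were higher with such a p, and the group was chosen after its values were seen. Rhox5 was at 0.82 and 0.69 in V-S+ and at 1.48 and 1.17 in V-S-. Rhox4d was at 1.07 and 1.25 in V-S+ and at 1.59 and 1.58 in V-S-. Rhox2a was the exception, at -0.02 in clone 16.1. The Rhox4 copies are near-identical, so their probes may share signal. Dppa3, expressed in oocytes and naive ES cells, went the other way, at 2.32 and 2.28 in V-S+ and at 1.97 and 1.95 in V-S- (difference -0.34, SE 0.182, adjusted p = 0.643 by limma).

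The labels were checked on Fut9 and on ES cell markers, and no probe was named for Hhex. Fut9 was at 0.85 and 0.95 in V-S+ and at 0.41 and 0.62 in V-S-, so that the fractions did not overlap. The difference was -0.38 (SE 0.0567, unadjusted p = 3.1e-04, adjusted p = 0.375 by limma, and adjusted p = 0.0346 by limma in the fit of the V- samples alone). It was -0.277 without background correction and -0.665 with the processed signals, which differ in normalization too. In V+ cells, where 0.353% of all and 2.3% of named probes were called lower, it was -0.64 (adjusted p = 0.00710 by limma), with values of 0.72 and 0.88 in V+S+ and of 0.10 and 0.23 in V+S-. The difference between these comparisons was 0.25 with a 95% interval from 0.0610 to 0.443, and was not called (adjusted p = 0.165 by limma). The other 4 named genes on the list for Lewis X synthesis were galactosyl- and glucosaminyltransferases between -0.13 (B4galt4) and 0.15 (B3gnt8).

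Most pluripotency genes differed little between the V- fractions, and Nanog, Pou5f1 and Tdgf1 were above the reference in all 4 samples. Nanog was at 1.36 and 1.41 in V-S+ and at 1.44 and 1.42 in V-S-, and Tdgf1, the Nodal co-receptor, at 1.52 and 1.69 in V-S+ and at 1.55 and 1.70 in V-S-. For Nanog the 95% interval of the difference ran from -0.325 to 0.408. Of 18 named genes on the list 11 were higher and 3 lower in both clones, against 32.1% and 44.1% of named probes. Their median was 0.05. That median was -0.146 with median centring, -0.122 without V-S+ of clone 5.1 and -0.068 without V-S- of clone 16.1. The largest value above 0 was that of Trim28, a repressor of endogenous retroviruses, at 0.24 (unadjusted p = 0.0467, adjusted p = 0.594 by limma). The lowest was Dppa3 at -0.34, with an adjusted p of 0.0333 in the fit of the V- samples alone (limma). Pou5f1 (Oct4) depended on the clone, with 1.99 in V-S+ and 1.40 in V-S- of clone 5.1 and 1.54 and 1.59 in clone 16.1. In V+ cells Pou5f1 differed by -1.23 (adjusted p = 0.0115 by limma) and Tdgf1 by -0.67 (adjusted p = 0.00769 by limma).

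**Figure D3:**
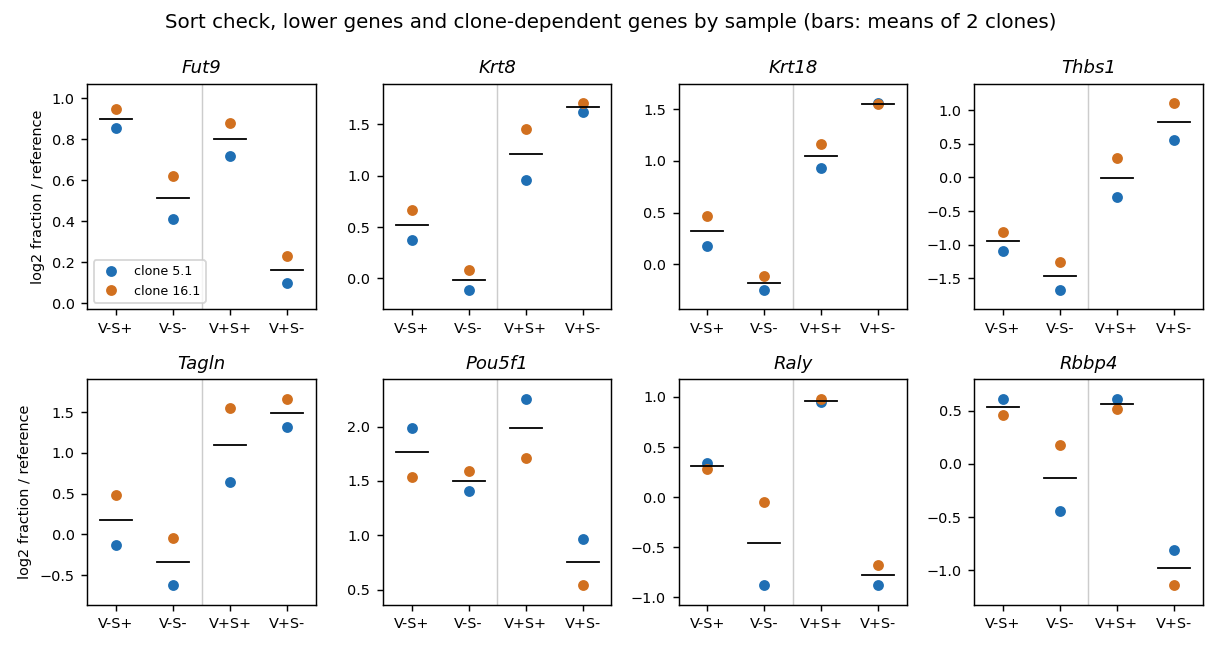
Log2 ratio of fraction to reference (y axis) for 8 genes in the 4 sorted fractions (x axis), with points for clones 5.1 and 16.1 and a bar for their mean. Fut9 is lower in both S- fractions; Krt8, Krt18 and Thbs1 are lowest in V-S- and highest in V+S-; Raly and Rbbp4 are lower in V-S- mainly in clone 5.1.

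The lower values in V-S- were smaller. Keratins, chosen after their values were seen, included Krt8 and Krt18, the pair of simple epithelia. Krt8 was at 0.38 and 0.67 in V-S+ and at -0.11 and 0.08 in V-S-, and Krt18 at 0.17 and 0.46 in V-S+ and at -0.25 and -0.11 in V-S-. The differences were -0.54 (SE 0.0979) and -0.50 (SE 0.0806), each with an adjusted p of 0.375 (limma). In the fit of the V- samples alone the adjusted p was 0.0127 for Krt8 and 0.0233 for Krt18. Krt7 was at 1.00 and 1.17 in V-S+ and at 0.53 and 0.42 in V-S-. Of 8 named keratins 6 were lower in both clones and 2, Krt15 (0.30) and Krt23 (0.51), were higher, where 44.1% of named probes were lower and 32.1% higher.

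Of 33 named genes on a list of YAP-responsive and actin genes, 27 were lower and 2 higher in both clones, against 34.1% and 35% of all probes and 44.1% and 32.1% of named ones. The median was -0.23 and stayed below 0 under every alternative run for it, from -0.416 with median centring to -0.137 without V-S+ of clone 5.1. Of the members 16, all lower, had an unadjusted p below 0.05, against 10.2% of named probes. All 33 genes on the list came from the study's genes that varied among these samples. The list was chosen with earlier results of these data known, so its direction is not independent evidence. Tagln, an actin-bundling protein of smooth muscle, was at -0.13 and 0.49 in V-S+ and at -0.63 and -0.04 in V-S-. Acta2, smooth muscle actin, was at -2.55 and -1.80 in V-S+ and at -2.85 and -2.45 in V-S-. The fractions overlapped for both genes, because the clones differed by about as much as the fractions, while each clone alone was lower in V-S-. Among YAP targets Amotl2 (-0.32), Axl (-0.28) and Ankrd1 (-0.25) were lower in both clones, while Ctgf (-0.02), Cyr61 (-0.11) and the pathway kinase Lats2 (-0.04) differed in sign between clones.

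Other genes with large lower values in both clones had varied roles. Prss23, a serine protease, was at -1.62 and -1.25 in V-S+ and at -2.19 and -1.87 in V-S-. Flt1, a VEGF receptor, was at -0.70 and -0.14 in V-S+ and at -1.27 and -0.78 in V-S-. Scel was at 0.24 and 0.16 in V-S+ and at -0.39 and -0.63 in V-S-. In each of the 3 genes both V-S- samples lay below both V-S+ samples. Ppbp (-0.63), Jph2 (-0.56), Galnt14 (-0.55) and F3, the tissue factor (-0.54), were lower in both clones by similar sizes, and Sh3rf2 by -0.83 and -0.51. Thbs1, thrombospondin 1, was at -1.09 and -0.81 in V-S+ and at -1.67 and -1.25 in V-S-.

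Many of these genes differed the other way in Venus-positive cells, although Sh3rf2, at -0.17 there, did not. The test of the difference between both comparisons called 280 probes, 265 below 0 (0.899% of those tested) and 15 above 0 (0.0509%). Of probes with a symbol 8.51% and 0.3% were called. Of the 280, 226 were lower in V-S- than V-S+ and higher in V+S- than V+S+. Those below 0 had a median difference of -0.143 in V- and of 0.744 in V+, so most of the size came from the Venus-positive cells. Thbs1 differed by -0.51 in V- and by 0.83 in V+, a gap of -1.34 (SE 0.119, adjusted p = 0.0357 by limma). Prss23 differed by -0.60 and 1.01, with a gap of -1.61 (SE 0.206, adjusted p = 0.0357 by limma). The gap was -1.005 for Krt18 and -0.99 for Krt8, with adjusted p of 0.0357 and 0.0418 (limma). No probe was called without clone as a block, with the scanner software's processed signals, with the Cy3 channel alone or with the authors' own table. The count depended on single samples, with 1033 without V+S+ of clone 16.1, 1 without V-S+ of clone 16.1 and 0 without each other sample in turn.

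**Figure D4:**
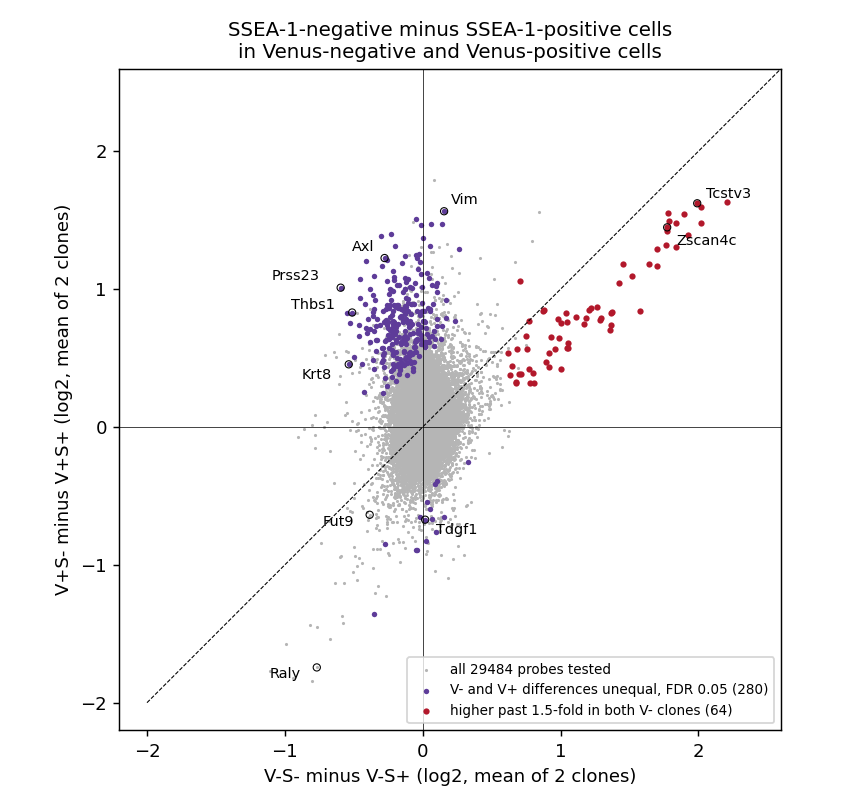
Difference between SSEA-1-negative and SSEA-1-positive cells for 29484 probes, in log2 units as the mean of 2 clones, in Venus-negative (x axis) and Venus-positive cells (y axis). The dashed line marks equal differences; the 64 probes higher in both V- clones (red) are above 0 on both axes, whereas most of the 280 probes called for unequal differences (purple) lie at or below 0 on x and above 0 on y.

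Some growth factor signalling genes were lower in V-S- and higher in V+S-. Egfr, the EGF receptor, was at -1.92 and -1.53 in V-S+ and at -2.44 and -1.83 in V-S-, and differed by -0.41 in V- and 0.72 in V+ (adjusted p of the gap 0.0485, limma). Its feedback inhibitor Errfi1 differed by -0.36 and 0.49 (adjusted p of the gap 0.0357, limma) and its ligand Hbegf by -0.22 and 0.36. Of 14 named genes on the FGF-ERK list 7 were lower and 3 higher in both V- clones, a split near that of all named probes (44.1% and 32.1%), and the gap was called below 0 for 3, against 8.51% of named probes. Dusp6 and Etv5, targets of FGF signalling, were at 0.18 and 0.03. Of 19 genes on the BMP, TGF-beta and Id list, 8 were lower and 5 higher in both clones, again near the named probes, and the gap was called for 5, of which 4 were below 0 (8.51% of named probes) and 1 above (0.3%). The ligand Tgfb2 differed by -0.36 in V- and 0.96 in V+, and Inhba, a subunit of activin, by -0.34 and 0.63 (adjusted p of the gaps 0.0357 and 0.0385, limma). Id1, a target of BMP signalling, was at 0.06 with a sign that turned under median centring and without V-S+ of clone 16.1.

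The labels name all 4 fractions after a stage before primitive endoderm, and genes of that lineage were not higher in V-S- than V-S+ as a group. Of 19 named genes on the primitive endoderm list 4 were higher and 9 lower in both clones, against 32.1% and 44.1% of named probes, and 1 was higher and 6 lower with an unadjusted p below 0.05, against 7.21% and 10.2%. The list, which includes Krt8, Krt18 and F3, had a median of -0.10 that was 0.015 without V-S- of clone 16.1. Gata6, a regulator of this lineage, was at -2.62 and -2.67 in V-S+ and at -2.43 and -2.56 in V-S-, a difference of 0.15 with a 95% interval from -0.112 to 0.404. It was 0.405 with the processed signals and 0.0347 with median centring. Sox7 was at -0.32 and -0.20 in V-S+ and at -0.31 and -0.20 in V-S-, and Dab2, an endocytic adaptor, differed by 0.03. In V+ cells these 3 genes differed by 0.74, 1.37 and 0.54 (adjusted p = 0.0141, 0.00769 and 0.0314 by limma). The gap between the comparisons was called for Sox7 (-1.37, adjusted p = 0.0420 by limma) and not for Gata6 (adjusted p = 0.117 by limma) or Dab2 (adjusted p = 0.156 by limma).

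Markers of other lineages and of stroma were split in direction. Of 12 neuroectoderm genes 5 were higher and 5 lower in both clones, of 7 mesoderm genes 3 and 3, and of 9 trophectoderm genes 4 and 4. Of 6 primed epiblast genes 2 were higher and 3 lower, with Fgf5 at 0.38 and Sox11 at -0.30. The 24 fibroblast and matrix genes ranged from -0.51 to 0.26 with a median of -0.03, of which 7 were higher and 9 lower in both clones. An unadjusted p below 0.05 was found for 4 lower and 0 higher trophectoderm genes, 3 and 0 fibroblast and matrix genes, 1 and 0 each for neuroectoderm and mesoderm, and 1 and 1 for primed epiblast. Of named probes 10.2% were lower and 7.21% higher by this measure, which is near the share in all of these lists but that of trophectoderm. Vim, vimentin, differed by 0.16 and Postn, periostin, by -0.05, against 1.56 and 1.51 in V+ cells (gaps of -1.41 and -1.56, adjusted p = 0.0357 for each by limma). Lgals1, a galectin, was lower in V-S- at -0.43 (SE 0.0650).

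**Figure D5:**
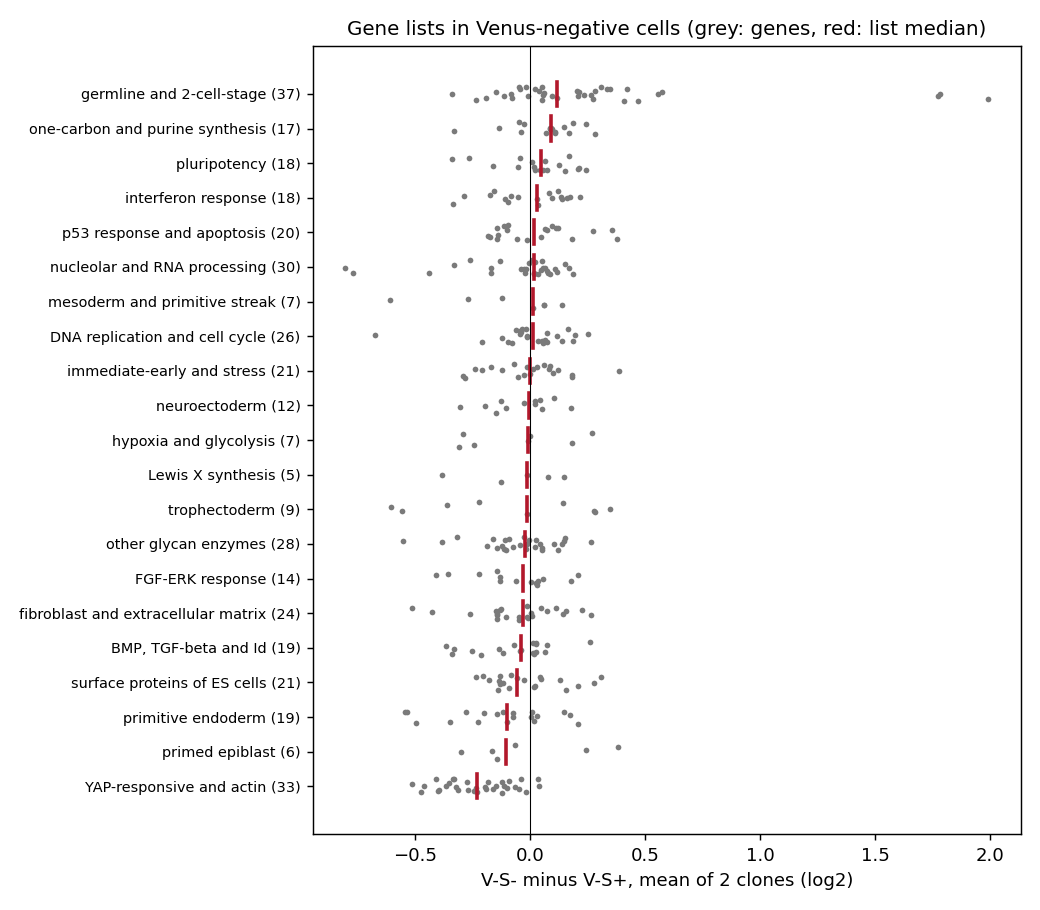
Log2 difference between V-S- and V-S+ (x axis, mean of 2 clones) for the named genes of 21 lists, 1 grey point per gene and a red bar for the list median, with the number of named genes in brackets. The list of YAP-responsive and actin genes has the lowest median at -0.23 and that of germline and 2-cell-stage genes the highest at 0.12, with 3 genes near 1.8 to 2.0.

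Housekeeping and stress lists had medians close to 0, with members on both sides. The medians were 0.01 for 26 DNA replication and cell cycle genes, 0.02 for 30 nucleolar and RNA processing genes and 0.03 for 18 interferon response genes. They were 0.00 for 21 immediate-early and stress genes and -0.01 for 7 hypoxia and glycolysis genes. Of these 7, 3 were lower and 1 higher with an unadjusted p below 0.05, against 10.2% and 7.21% of named probes. By this measure 3 interferon genes were lower and 1 higher. The cell cycle and nucleolar lists each had 2 lower and 1 higher, and the stress list 0 and 2. Median centring, where all probes shifted by -0.125, turned the cell cycle, nucleolar and interferon medians to -0.185, -0.185 and -0.101. Leaving out V-S+ of clone 5.1 turned them to -0.048, -0.051 and -0.045. The 17 genes of one-carbon and purine synthesis had a median of 0.09. It turned to -0.135 with median centring and to -0.0087 without V-S+ of clone 5.1. Of these genes, all from the study's list of genes that varied, 12 were higher and 3 lower in both clones. Of named probes 32.1% were higher and 44.1% lower. With an unadjusted p below 0.05, 3 of the 17 were higher and 1 lower. Of 20 genes of the p53 response and apoptosis, 10 were higher and 9 lower in both clones, against 32.1% and 44.1% of named probes. With an unadjusted p below 0.05, 3 were higher and 0 lower. Mdm2, the p53 ubiquitin ligase, was at 0.60 and 0.46 in V-S+ and at 0.94 and 0.67 in V-S-, and Trp53inp1 at 0.82 and 0.76 in V-S+ and at 1.18 and 1.11 in V-S-. The 21 surface proteins and 28 other glycan enzymes had medians of -0.06 and -0.02. Podxl, a surface sialomucin, was at 0.02.

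Some genes were lower mainly in 1 clone, and were picked here by their values in that clone. The 57 probes lower by more than 1.5-fold in clone 5.1 had a median of -0.879 there and of -0.140 in clone 16.1, and the 29 lower by that size in clone 16.1 had -0.740 there and -0.131 in clone 5.1. A smaller median in the other clone follows from the choice. Scel, Sh3rf2 and Jph2 are among the 57. Raly, an RNA-binding protein, was at 0.34 in V-S+ and -0.88 in V-S- of clone 5.1, and at 0.28 and -0.04 in clone 16.1. Rbbp4, a histone chaperone, was at 0.61 and -0.45 in clone 5.1 and at 0.46 and 0.17 in clone 16.1. Prpf19, a splicing factor, was at 0.43 and -1.21 in clone 5.1 and at 0.20 and 0.24 in clone 16.1. Tmed9, Stk32c and 6230416J20Rik (now Haus6) had the same form, with differences of -1.25, -0.95 and -0.999 in clone 5.1 and of -0.22, -0.20 and -0.16 in clone 16.1. The largest lower values over all probes were of this kind too, with -1.92 and -0.30 for Z00023644-1, -1.42 and -0.57 for Z00014800-1 and -1.74 and -0.14 for Z00074879-1.

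In Venus-positive cells, whose values the choice did not use, 49 of the 57 probes were lower in both clones and 5 higher in both, against 30.7% and 40.8% of all probes. Their medians there were -0.598 and -0.670 in clones 5.1 and 16.1, and 30 were lower past 1.5-fold in both, as were 0.244% of all probes. Scel (0.93 and 0.11) and Jph2 (0.90 and 0.20) were higher. Raly was at 0.95 and 0.98 in V+S+ and at -0.88 and -0.68 in V+S-, so V-S- of clone 5.1 was as low as V+S- of that clone. Raly differed by -1.74 in V+ (adjusted p = 0.00822 by limma) and Rbbp4 by -1.54 (adjusted p = 0.0112 by limma). The gap between the comparisons was not called for either gene (adjusted p = 0.138 and 0.183 by limma). Of the 29 probes picked in clone 16.1, 4 were lower and 16 higher in both V+ clones. Whether the clones differ in this response was not tested, since each holds 1 sample per fraction.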

How the data were processed

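RNA from 4 sorted fractions of 2 HV ES cell clones was measured on two-colour arrays, with the fraction in Cy3 and a common reference in Cy5, and dyes were not swapped. Spot intensity was deposited by the authors in 16 files, 2 scans per array, from Agilent Feature Extraction 9.5.1.1. They also deposited log10 values of 25164 probes in 1 table. After subtraction of each probe's mean, these matched the processed Cy3 over Cy5 ratios (r = 1.00 in every sample), so their direction is known and the level set for each probe is not. The study's list of varying genes, used here only for symbols, was read for 1998 rows; its columns of comparisons were not used. Of the symbols, 1611 were current in RefSeq and 271 were older names.

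Mean signals and median backgrounds were corrected with normexp (offset of 50), normalized by loess within arrays with limma 3.58.1 in R 4.3.3 and averaged over scans. Control spots were left out and outlier spots were missing. A probe was tested if every file of 1 or more fractions had it well above background and no sample lacked a value. The model had fraction and clone as terms over all 8 samples; calls needed an FDR of 0.05 and more than 1.5-fold, and calls of the difference between comparisons an FDR of 0.05. Clones pair the samples because all 4 fractions of a number come from 1 line, and clone deviations correlated with r from 0.588 to 0.811 over 6 pairs of fractions. Intervals are 95%. The median ratio of Cy3 to background was between 2.36 and 2.87, and the number of arrays limits the precision. The fit was tested on simulated data.

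The members and gene lists were chosen with earlier results of these data known. Named genes were list members, the 15 largest rises and falls with a symbol and the 3 largest of all probes with the same sign in both clones, and Fut9. Some genes that the rule names are not reported here. Keratins, the Rhox group and other genes higher in both clones were named after their values were seen. Alternatives were other background corrections and normalizations, Cy3 alone, other filters, single scans, the authors' table, no block, only 2 fractions, an unmoderated test and leaving out each sample.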

Additional observations from a re-analysis of the deposited data

Results flagged for a closer look

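The SSEA-1 difference was unequal between V- and V+ cells for 280 probes, by a test of the difference between both comparisons in the fit with clone as a block (limma, FDR of 0.05). For 6 named genes with large lower values in V-S- the difference in V- less that in V+ was -1.28 for Anxa1 (annexin A1), -0.99 for Krt8, -1.34 for Thbs1, -1.005 for Krt18, -1.61 for Prss23 and -1.38 for Galnt14. Each was lower in V-S- in both clones and higher in V+S- in both. Without the block none of the 280 passed. No probe passed with processed signals, without background correction, with Cy3 alone, with the authors' table or with an unmoderated test. The other filters, scans and normalization gave from 221 (first scan alone) to 6975 (median centring). The count also depended on single samples.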

How the results depend on the processing

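For V-S- against V-S+ no probe was called, and 64 were higher and 1 lower past 1.5-fold in both clones; calls came only with the fits named here. With only the 2 fractions fitted, 68 were called higher and 7 lower, and 7007 had an unadjusted p below 0.05; without the replicate block in that fit 1328 did and 0 were called. The replicate block also changed the fit of 8 samples: without it 834 probes had an unadjusted p below 0.05 in place of 2471, and 0 in place of 280 were called for unequal differences in V- and V+. Processed signals gave 263 higher and 109 lower past 1.5-fold in both clones, and 0 unequal differences. No background correction gave 0 lower and 0 unequal, Cy3 alone 2 lower and 0 unequal, the first scan 2 lower and the second 3 lower, and the unmoderated test 0 unequal. Median centring gave 9458 probes with an unadjusted p below 0.05, 23 lower in both clones and 6975 unequal differences, and no filter on dim probes gave 426 unequal. The authors' table gave 1597 with an unadjusted p below 0.05, 166 higher, 62 lower and 0 unequal, and without the block (added after seeing the data, as was the fit of 2 fractions without it) 627, with 1 called lower and 1 unequal. The cause was not tested.

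Leaving out each sample in turn gave 0 called higher, 0 to 5 called lower (4 without V-S+ of clone 5.1 and 5 without V-S+ of clone 16.1), 1047 to 2996 with an unadjusted p below 0.05 and 0 to 1033 unequal differences. Where this leaves 1 sample in a fraction, that sample is assumed to vary like the others. The counts over both clones have no value without a V- sample. The 35 leading probes kept their direction under the other alternatives run for them, which for the 5 without a symbol leave out the authors' table. Small values turned: with median centring Nanog -0.19, Sox7 -0.0602, Dab2 -0.11 and Id1 -0.17, and Sox7 also without background correction (-0.00051) and on the second scan (-0.0572). Leaving out a sample, Nanog ranged from -0.13 to 0.22, Dab2 from -0.052 to 0.11, Pou5f1 from -0.60 to 0.0651, Sox7 from -0.15 to 0.16 and Id1 from -0.0313 to 0.16. Without leaving out samples, sizes ranged from -0.545 to -0.255 for Dppa3, -0.471 to -0.248 for Pou5f1, -0.898 to -0.485 for Stk32c and 1.05 to 2.13 for BC080695, with no change of sign. On leaving out a sample they ranged from -0.486 to -0.191 for Dppa3, -0.889 to -0.259 for Stk32c and 1.02 to 1.57 for BC080695.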

Other observations

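There were 221 probes well above background in both V-S- samples and in no V-S+ sample, and 40 with the reverse pattern. The arrays differed in total as well, with 29572 and 29139 probes above background in V-S- and 29395 and 28317 in V-S+, and the part of this in the count was not tested. Interferon-linked genes split: B2m, a subunit of class I antigens, differed by -0.29 in V- and 0.52 in V+ (adjusted p of the gap 0.0467, limma), whereas Aim2, a DNA sensor, differed by -0.34 and -0.51. Tdgf1 and Usp44, a deubiquitinase, were among the 15 probes with a gap above 0, at 0.02 and 0.03 in V- and at -0.67 and -0.54 in V+.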
